A study of Mus musculus with 2 samples.

Results

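The cells described here are macrophages of the mouse aorta that carry genes of resident, perivascular-type tissue macrophages. They are named after Lyve1, F13a1 and Cd163, though not every cell held each of these genes. The cells were chosen from the measured counts. A droplet barcode entered with at least 2000 unique molecular identifiers (UMIs), at least 800 detected genes and at most 20% mitochondrial UMIs. It then needed a UMI in 3 or more of the macrophage genes Cd68, Csf1r, Adgre1, C1qa, C1qb and C1qc, and in 3 or more of the resident genes Lyve1, F13a1, Cd163, Cbr2, Folr2 and Cd209f. At most 2 of the lipid-associated genes Gpnmb, Cd5l, Trem2, Atp6v0d2, Slc40a1 and Apoc1 were allowed. The rule found 141 barcodes, 98 in library 1 and 43 in library 2, of 2433 macrophage-gated barcodes and of 20650 barcodes that passed the depth filters. Since 18 genes chose these cells, their levels are given as a description and support nothing. Every contrast of the chosen cells with other barcodes is a description as well.

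The study ran 10x Chromium 3' v3 single-cell RNA sequencing on 2 aortic samples, 1 labelled HFD and 1 labelled MSC_ITGB3. Both came from ApoE-/- mice of 20 weeks. Apolipoprotein E is thus missing in both samples, and such mice develop atherosclerotic plaques. The labels give neither the number of mice behind a sample nor the source of the MSC_ITGB3 material. The deposited matrix joins 2 libraries, told apart by the barcode suffix, and nothing ties a suffix to a sample. Values are therefore given for library 1 and then library 2, no library is called treated or untreated, and with 1 library of each kind there is no replicate and no test. Intervals in brackets are exact, at 95%, and cover counting error only.

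Resident macrophages sit around vessels and in connective tissue, take up debris, hyaluronan and haemoglobin complexes through surface receptors, and are kept in many tissues by local renewal. Those of the arterial adventitia are known for LYVE1, a hyaluronan receptor, and for low MHC class II. Plaques in contrast gather lipid-laden macrophages with TREM2 and GPNMB, and inflammatory macrophages derived from monocytes. F13a1 encodes the A subunit of coagulation factor XIII, Cd163 the haptoglobin-haemoglobin receptor, Folr2 a folate receptor, Cbr2 a carbonyl reductase and Cd209f a C-type lectin of the DC-SIGN family.

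The libraries hold 110257209 and 124266676 UMIs, of which the kept barcodes hold 77.5% and 59.3%. Chosen cells had median depths of 4608 and 7337 UMIs and summed to 671000 and 360877 UMIs. Levels of summed barcodes are given as CPM, the UMIs of a gene per 1000000 UMIs of the set. Apoe gave 22.4 CPM (12.5 to 36.9) and 16.6 CPM (6.10 to 36.2) in the chosen cells, against 12.7 and 7.42 CPM in the other macrophage-gated barcodes. Across the kept barcodes, 43 barcode sequences occur in both libraries, but none is a chosen cell in both, and 3 chosen cells have their sequence among the deep barcodes of the other library.

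The chosen barcodes were of 2 kinds, and the difference bears on every value that follows. A barcode was called mixed when at least 4 markers of another cell class were detected in it and took at least 1% of its UMIs, and single-class otherwise. In library 1, 45 of 98 chosen barcodes were mixed, and in library 2 this held for 5 of 43. Fibroblast markers marked 39 and 5 of them, smooth muscle markers 6 and 0, and chondrocyte markers 1 and 0. That leaves 53 and 38 single-class barcodes, 91 in all. The limit does not fall in an empty range, since 7 and 5 barcodes lay between 0.5% and 1%, 19 and 3 between 1% and 2%, and 26 and 2 above 2%.

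The single-class barcodes held a median of 194 and 140 UMIs per 10000 in the 6 macrophage genes of the rule, and 3.18 and 5.74 per 10000 in 12 fibroblast and smooth muscle markers. In the mixed barcodes the medians were 26.7 and 51.3 for macrophage genes and 239 and 224 for stromal markers. Stromal markers helped to define the kinds, and their edges were not apart. Single-class barcodes reached 134.5 and 177.5 stromal UMIs per 10000, and mixed ones began at 135.2 and 144.6. Some single-class barcodes held more stromal than macrophage UMIs, such as 134.5 against 106.8 in library 1 and 177.5 against 62.4 in library 2. Mixed barcodes were also shallower, with medians of 3635 and 2273 UMIs against 7280 and 7730. C1qa, a subunit of complement C1q, stood at 996 CPM in the mixed barcodes of library 1, between its 7246 CPM in single-class barcodes and the 196 CPM of droplets with 10 to 50 UMIs, which stand for free RNA. Dcn, the fibroblast proteoglycan decorin, was at 7659 CPM in the mixed barcodes of library 1, near its 8656 CPM in barcodes gated as fibroblasts, against 163 CPM in single-class ones. Ccl8, a chemokine outside the rule, separated the kinds in the same direction, with 58.3 CPM in mixed and 6574 CPM in single-class barcodes of library 1 and 1723 and 5978 CPM in library 2. Per barcode this held in library 1 alone, with medians of 0 and 11.1 UMIs per 10000. The 5 mixed barcodes of library 2 all held Ccl8, with a median of 17.6 against 11.1. Of these 5, 1 barcode held 62.6% of their UMIs, so every summed level of that set rests mainly on 1 droplet. The mixed barcodes still held F13a1 at 449 CPM and Cd209f at 256 CPM in library 1, where free RNA gave 15.1 and 0 CPM, although the rule itself required such genes. Whether a mixed barcode is a pair of cells in 1 droplet, a macrophage in free RNA or a stromal cell was not tested. Gene values are therefore given below for single-class barcodes, called the resident macrophages, and counts also for all 141.

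**Figure D1:**
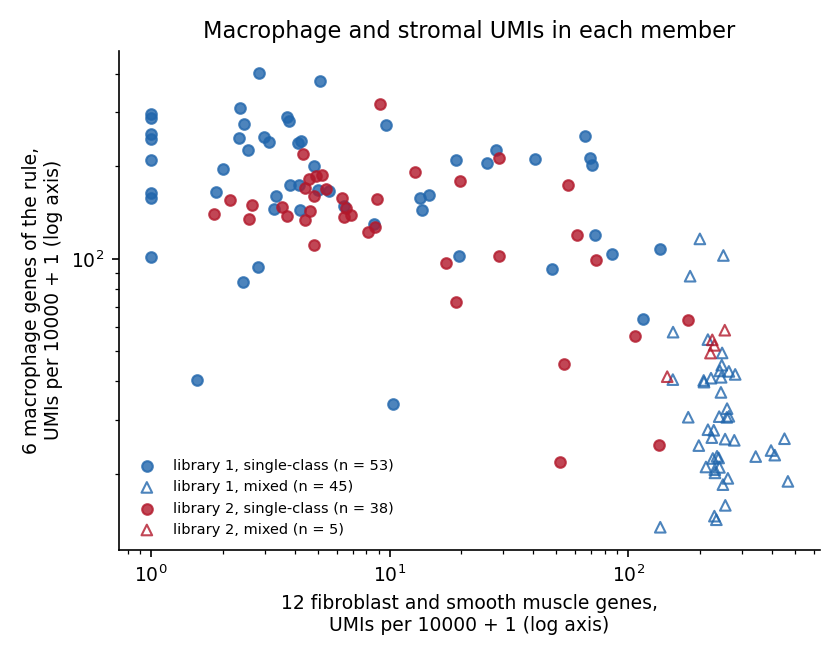
Each point is 1 of the 141 chosen barcodes; the horizontal axis gives UMIs per 10000 in 12 fibroblast and smooth muscle markers and the vertical axis those in the 6 macrophage genes of the rule, both plus 1 on log axes. Mixed barcodes (triangles) lie to the right and low, with medians of 239 and 224 stromal UMIs per 10000. Single-class ones (circles) lie mostly to the left, with 3.18 and 5.74, but reach 134.5 and 177.5. Stromal markers helped to define the kinds.

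Other cell classes were checked by their markers in all chosen cells. Lymphatic endothelium, the other vascular source of Lyve1, was nearly absent: Prox1 gave 6 UMIs, both genes named Ccl21a, Mmrn1, Flt4 and Reln gave 0, and 6 genes summed to 8.94 and 0 CPM. The monocyte gene Ly6c2 was at 0, with 6 markers at 210 and 47.1 CPM. T cell markers summed to 31.3 and 11.1 CPM with Cd3d and Trac at 0, and B cell markers to 0 and 13.9 CPM with Cd79a and Pax5 at 0. In the single-class barcodes fibroblast markers summed to 540 and 950 CPM (19460 and 19610 CPM in the mixed ones) and smooth muscle markers to 187 and 523 CPM. The split itself limits the stromal sums of the single-class barcodes, so these sums do not bear on the label. The label is kept for the single-class barcodes as a description. In library 1, 45 of 98 barcodes carried a stromal profile beside the macrophage one.

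All chosen cells made up 8.77% (7.17 to 10.6) of the macrophage gate in library 1 and 3.27% (2.38 to 4.38) in library 2. Among single-class barcodes only, the shares were 8.15% (6.17 to 10.5, 53 of 650) and 8.21% (5.87 to 11.1, 38 of 463). As a share of the whole gate, the single-class cells were 4.74% (3.57 to 6.16) and 2.89% (2.05 to 3.95). Thinning the single-class barcodes to 2000 UMIs gave 7.69% and 5.10%, an alternative chosen after seeing the data. The size of the gap between the libraries thus depended on the denominator and on depth. In the rest of the gate 41.5% and 66.6% of barcodes were mixed, the opposite order of the chosen cells, where 45.9% and 11.6% were.

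The 6 resident genes of the rule set the resident macrophages apart by construction. Lyve1 (chromosome 7, 110850607 to 110863239, minus strand, GRCm38) stood at 915 and 229.8 CPM in them, against 2.35 and 0.843 CPM in the other single-class macrophage-gated barcodes. F13a1 stood at 2410 and 1234 CPM against 33.1 and 27.5 CPM, Folr2 at 1107 and 532 CPM against 36.1 and 32.6 CPM, and Cbr2 at 922 and 605 CPM against 13.5 and 17.1 CPM. Cd163 reached 333 and 233 CPM and was at 0 in lipid-associated single-class barcodes, and Cd209f reached 480 and 78.6 CPM. Per cell the genes were uneven. Lyve1 ran from 0 to 49.9 UMIs per 10000 in library 1 with a median of 4.45, and from 0 to 13.9 with a median of 0 in library 2, whereas F13a1 was detected in 50 of 53 and 37 of 38 resident macrophages. Lyve1 was detected in 42 of 53 and 18 of 38 cells, and Cd163 in 30 of 53 and 21 of 38. Cd209f came from 11 of 53 and 7 of 38 cells. Among the lipid genes, Cd5l and Slc40a1 gave no UMI in the 141 chosen barcodes, which puts Cd5l at least 339-fold below the other macrophage-gated barcodes at a floor of 3 counts over the group. Trem2 was still at 364 and 375 CPM, under the 1653 and 1474 CPM of lipid-associated single-class barcodes. It was detected in 31 of 53 and 29 of 38 resident macrophages, in library 2 more often than Lyve1.

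Lyve1 helped to choose the cells, so its detection in them is raised by construction. It is set beside that in fibroblast-gated and T cell-gated barcodes as a description only. Lymphatic endothelium, the other vascular source of Lyve1, is not among the classes given, so the contrast does not make Lyve1 particular to these cells. A Lyve1 UMI was seen in 79.2% and 47.4% of resident macrophages, and in 64.2% (49.8 to 76.9) and 26.3% (13.4 to 43.1) after thinning every cell to 2000 UMIs. Fibroblast-gated barcodes gave 1.62% and 1.00% unthinned at median depths of 5060 and 3386 UMIs. T cell-gated barcodes gave 0 of 213 and 0 of 166 at 5316 and 4876 UMIs, which allows shares of up to 1.41% and 1.81% of cells with a UMI.

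The promoter stretches of genes high in these cells are shown because several of them share a short motif. Of 21 genes (the 6 resident rule genes and the 15 other genes highest against the rest of the gate), 15 had promoter entries in RefSeq for GRCm38.p6, in 17 windows. Lyve1, Ccl24, Fxyd2, Clec10a, Maf and Ifi27l2a had no entry. The 250 bases before each annotated start were searched on both strands for 9 motifs. AGGAAGT, a core bound by PU.1 and other ETS factors, occurred in 10 of 17 windows (58.8%), against 7.69% of all 32851 promoter windows of that length and 8.98% of 2015 windows of genes tested here. It was picked for display after the matches of all 9 were seen. A related core, GAGGAAG, which overlaps it by shift, occurred in 7 windows against 10.6% of all. The MAF site piece TGCTGA was in 8 against 16.1%, its longer form TGCTGAC in 2 against 3.81%, the AP-1 site TGACTCA in 2 against 4.46%, and the Krüppel-like core CACCC in 11 against 52.0%. The longer forms GAGGAAGT and GGGTGTGGC were in 2 and 1 windows, against 2.44% and 1.22%, and the glucocorticoid receptor piece AGAACA in 4 against 16.1%. A match describes letters only and shows no binding. In the 4 stretches that follow, written 5′ to 3′ along the gene's strand, capitals mark AGGAAGT or its reverse complement.
Pf4 (chr5:90772185-90772434, plus strand, match 10 bases before the start): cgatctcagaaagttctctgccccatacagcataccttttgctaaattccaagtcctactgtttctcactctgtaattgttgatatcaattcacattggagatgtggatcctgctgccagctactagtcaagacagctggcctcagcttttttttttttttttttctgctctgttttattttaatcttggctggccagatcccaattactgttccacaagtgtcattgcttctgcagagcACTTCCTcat
Mrc1 (chr2:14229164-14229413, plus strand, match 211 bases before the start): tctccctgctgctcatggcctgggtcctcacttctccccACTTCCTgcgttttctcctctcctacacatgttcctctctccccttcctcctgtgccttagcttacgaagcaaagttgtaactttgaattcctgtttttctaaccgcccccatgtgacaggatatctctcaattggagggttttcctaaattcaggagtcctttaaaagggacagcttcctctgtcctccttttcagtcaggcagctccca
Fcna (chr2:25627975-25628224, minus strand, match 15 bases before the start): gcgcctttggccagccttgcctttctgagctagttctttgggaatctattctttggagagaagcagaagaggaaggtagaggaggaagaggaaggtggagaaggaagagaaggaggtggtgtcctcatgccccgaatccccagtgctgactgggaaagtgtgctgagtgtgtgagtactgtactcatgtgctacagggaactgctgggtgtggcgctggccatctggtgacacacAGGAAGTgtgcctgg
F13a1 (chr13:37049214-37049463, minus strand, match 36 bases before the start): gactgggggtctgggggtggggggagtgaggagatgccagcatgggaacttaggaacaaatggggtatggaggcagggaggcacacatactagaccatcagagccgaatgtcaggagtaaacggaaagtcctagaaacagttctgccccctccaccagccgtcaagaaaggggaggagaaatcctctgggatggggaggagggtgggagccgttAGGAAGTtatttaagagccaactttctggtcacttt
For Pf4 and Mrc1 the match lies on the opposite strand. The F13a1 stretch belongs to a second RefSeq start inside the gene, and the window at its outer start, chr13:37050245-37050494, holds no match.

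Outside the rule, genes of the resident programme stood above the rest of the gate together. A gene was called when it was at 100 CPM or more in the higher set and differed 2-fold or more in the same direction in each library. Over all chosen barcodes, 158 of 1983 genes were called higher than in the other macrophage-gated barcodes (7.97%) and 90 lower (4.54%). For single-class barcodes on both sides the counts were 228 of 1996 (11.4%) and 120 (6.01%). Of 16 resident genes outside the rule, 13 were abundant enough to be tested, and 12 were called higher and none lower, both over all chosen barcodes and over the single-class ones. Their median log2 ratio was 3.87 among single-class barcodes, against 0.10 for all genes tested. This list was drawn up with earlier results of these data known.

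Pf4, platelet factor 4, stood at 4463 and 2005 CPM against 75.7 and 148 CPM, a ratio of 33.7 with the libraries summed (31.3 to 36.2). Ccl8, a ligand of CCR receptors on monocytes and T cells, stood at 6574 and 5978 CPM against 172 and 509 CPM, a ratio of 21.6 (20.6 to 22.6). Mrc1, the mannose receptor CD206, stood at 1866 and 1430 CPM against 113 and 117 CPM. All 3 exceeded the rest of the gate in both libraries. The transcription factor Maf was at 600.3 and 556 CPM against 43.6 and 44.9 CPM. Ltc4s, which makes leukotriene C4, was 29.3-fold higher (24.7 to 34.8), Ednrb, an endothelin receptor, 23.2-fold (18.5 to 29.4), Gas6, a bridge to apoptotic cells, 4.64-fold, and Stab1, stabilin-1, 3.95-fold. Selenop, a selenium carrier, was higher by 2.43-fold only, and against lipid-associated single-class barcodes its ratio was 1.21. Igf1 was the member that was tested and not called, at 252 and 435 CPM against 374 and 411 CPM. Timd4, a phosphatidylserine receptor of long-lived resident macrophages, was too low to be tested at 42.4 and 39.3 CPM, but was at 0.157 and 0.281 CPM in the other single-class barcodes.

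**Figure D2:**
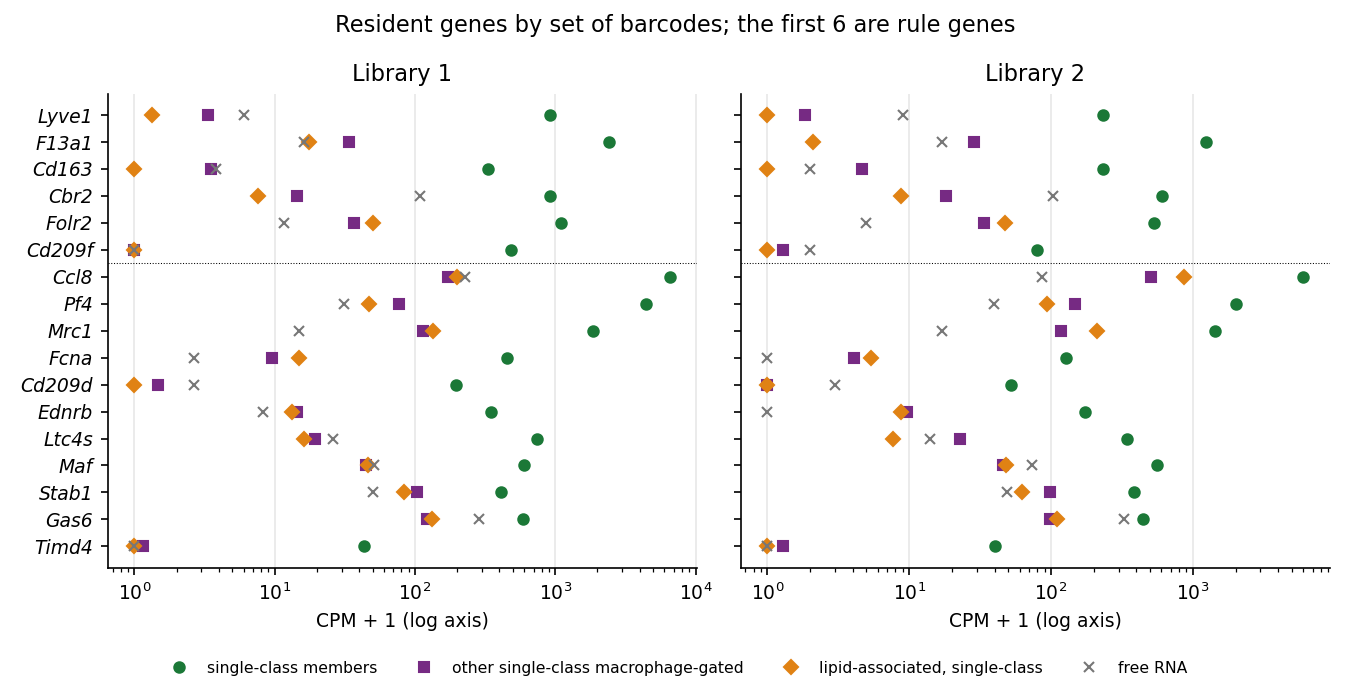
Level (CPM plus 1, log axis) of 17 resident genes in 4 sets of barcodes, 1 panel a library; the 6 genes above the dotted line are rule genes. The resident macrophages (circles) exceed every other set for each gene in both panels, as with Pf4 at 4463 and 2005 CPM; Igf1, which was not called, is not plotted.

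Most tested scavenger and uptake receptors stood higher in the resident macrophages. Of 20 listed genes, 19 were measured and 11 tested, and 9 were called higher and none lower, with a median log2 ratio of 3.58. Mrc1, Stab1, Cd209d and Fcna are also on the resident list, and Mrc1, Mgl2 and Clec10a on that of alternative activation, so these lists are not separate evidence. Fcna, ficolin A, reached 451 and 127 CPM against 8.63 and 3.09 CPM. The lectins Clec10a and Mgl2, both of which bind galactose-type sugars, were 31.4-fold (25.2 to 39.5) and 11.9-fold (9.90 to 14.3) higher. Fcgrt, the neonatal Fc receptor, reached 1015 and 520 CPM against 61.3 and 65.7 CPM, and the endocytic adaptor Dab2 759 and 922 CPM against 165 and 215 CPM. Cd209d was at 196 and 51.4 CPM with 3 UMIs among the others of library 1 and 0 in library 2. That level came from 11 and 3 cells, and 1 cell held 38.6% and 58.8% of its UMIs. Cd209d, Cd209f, Cd209g and Cd209b are close paralogs, so reads may be split among them and their single levels are uncertain. Clec7a was not analysed here.

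The lists of apoptotic cell uptake and of iron and haem handling moved less as groups. For uptake, 2 of 9 tested genes were higher, Gas6 and Pros1, both ligands of the TAM receptors, and 1 lower, with a median of 0.37. The lower gene was Mfge8, an opsonin for dying cells, at 24.6 and 51.4 CPM against 992 and 541 CPM. Mertk, the receptor, was at 165 and 145 CPM against 117 and 63.2 CPM and was not called. For iron and haem, Hmox1 (haem oxygenase 1), Blvrb (biliverdin reductase B) and Trf (transferrin) were higher by 2.71-, 2.39- and 3.74-fold, 3 of 7 tested, with a median of 0.32. Over all chosen barcodes, mixed ones kept, 9 iron genes were tested against all lipid-associated barcodes. The ferritin genes Fth1 and Ftl1 and 3 more were lower and none was higher, where 136 of all 1961 genes (6.94%) were lower. Against the other single-class barcodes neither Fth1 nor Ftl1 was called.

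Genes of alternative activation were higher without the full set being seen. Of 13 listed, 7 were tested: Mrc1, Retnla, Mgl2, Clec10a and Ccl24 were higher and Tgm2, a transglutaminase, was lower, with a median log2 ratio of 3.63. Ccl24, an eotaxin, stood at 187 and 63.5 CPM against 0.470 and 2.25 CPM and was detected in 25 of 53 and 13 of 38 cells. Retnla, a secreted resistin-like protein, stood at 859 and 575 CPM against 63.4 and 52.5 CPM, but came from 16 of 53 and 6 of 38 cells, and 1 cell held 56.3% of its UMIs in library 2. Fxyd2, a regulator of the sodium pump, was at 857 and 96.8 CPM against 6.27 and 7.86 CPM, in 37 of 53 and 16 of 38 cells.

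Among 15 tested chemokines 6 were higher (Ccl7, Ccl8, Ccl9, Ccl12, Ccl24 and Pf4) and 2 lower (Ccl5 and Cxcl16), with a median of 1.26. Ccl7, which draws CCR2-bearing cells, was at 870.3 and 1394 CPM against 164 and 316 CPM. Ccl2 was at 587 and 1352 CPM against 335 and 463 CPM and was not called. Inflammatory genes did not move as a group, with 1 of 8 tested genes higher, Nfkbiz, and 1 lower, and a median of 0.04. The lower gene was Il1b, interleukin 1 beta, at 2.23 and 33.3 CPM against 121 and 168 CPM. Tnf was not called, at 531 and 508 CPM against 361 and 245 CPM.

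Several regulators and immune genes stood higher as well. Of 16 tested macrophage transcription factors 7 were higher, among them Maf, Klf2, Klf4, Egr1, Atf3 and Runx1, and none lower, with a median of 0.96. Klf2, a factor of the Krüppel-like family, was at 217 and 206 CPM against 81.1 and 80.6 CPM. Klf4, Egr1, Atf3 and Runx1 were not called when mixed barcodes were kept on both sides. Complement gene C4b was at 714 and 720 CPM against 48.9 and 62.6 CPM, the C5a receptor C5ar1 was 4.45-fold and properdin, Cfp, 3.25-fold higher, while C3 was lower. Cd86, a T cell costimulator, was at 884 and 1228 CPM against 187 and 272 CPM. Ifi27l2a was 9.38-fold higher (8.91 to 9.87), and 2 of 7 interferon genes were called. Of 14 immediate-early and heat shock genes, which also answer to tissue dissociation, 6 were higher and none lower, with a median of 1.16. Hspa1a, one of them, was at 1109 and 2398 CPM against 315 and 889 CPM. Hspa1a and Hspa1b are near-identical copies and their counts may be split. The part of these genes in the other results was not tested.

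**Figure D3:**
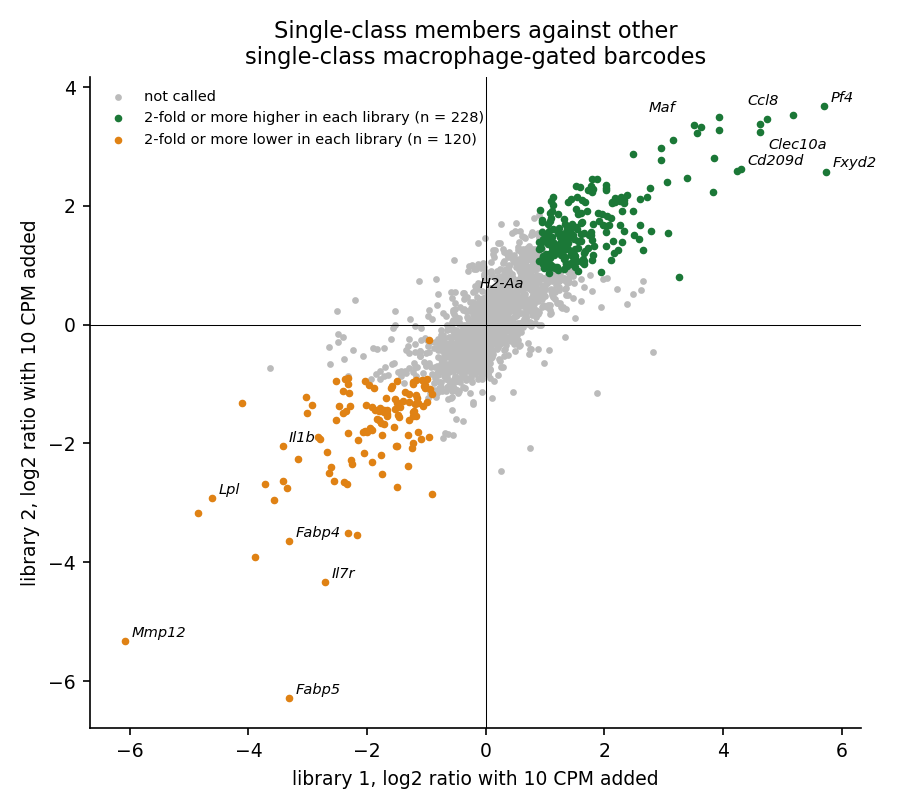
Each point is 1 of 1996 genes tested, with the log2 ratio of resident macrophages to the other single-class macrophage-gated barcodes in library 1 (horizontal) and library 2 (vertical), 10 CPM added to both sides. The call rule itself places the 228 genes higher in each library (green, with Pf4) at the upper right. It places the 120 lower ones (orange, with Mmp12 and Fabp5) at the lower left.

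Genes of lipid-laden macrophages were among the 120 that lay below the rest of the gate. Of 18 lipid-associated genes outside the rule, all tested, 12 were called lower and none higher, with a median log2 ratio of -2.02. Mmp12, macrophage elastase, stood at 4.46 and 3.02 CPM against 963 and 514 CPM. Lpl, lipoprotein lipase, stood at 26.8 and 66.5 CPM against 889 and 567 CPM. Fabp4, a fatty acid carrier, stood at 53.6 and 15.1 CPM against 621 and 303 CPM. Each of these was lower in both libraries. Fabp5 stood at 502 and 24.2 CPM against 5092 and 2666 CPM, and 1 cell held 84.0% of its UMIs in library 1. The galectin Lgals3 was at 1314 and 493 CPM against 6633 and 5720 CPM. Spp1, osteopontin, was at 1533 and 454 CPM against 6941 and 5398 CPM, with 91.4% of its UMIs in library 1 in 1 cell, and it was not called when mixed barcodes were kept.

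The cathepsin list also holds Lgmn, legumain, and Cst3, the cathepsin inhibitor cystatin C, neither of them called. Of its 11 tested genes 4 were lower (Ctsd, Ctsl, Ctss and Ctsz) and 1 higher, with a median of -1.04. Ctsl, a lysosomal protease, was at 1234 and 953 CPM against 5236 and 3363 CPM, and the higher one, Ctsc, which activates granule proteases, at 948 and 979.8 CPM against 340.4 and 476 CPM. Matrix proteases and their inhibitors were lower in 4 of 8 (Mmp12, Mmp14, Adam8 and Timp1) and higher in 1, Adam9. Il7r, the interleukin 7 receptor, was at 22.3 and 0 CPM against 201 and 191 CPM, Gngt2, a G protein subunit, at 40.2 and 57.5 CPM against 655 and 423 CPM, and Acp5, tartrate-resistant acid phosphatase, at 40.2 and 15.1 CPM against 301 and 132 CPM. Cd72, which marks another macrophage state of this gate, was at 62.5 and 181 CPM against 314 and 725 CPM. Itgax, CD11c, was at 2.23 and 15.1 CPM against 121 and 145 CPM.

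**Figure D4:**
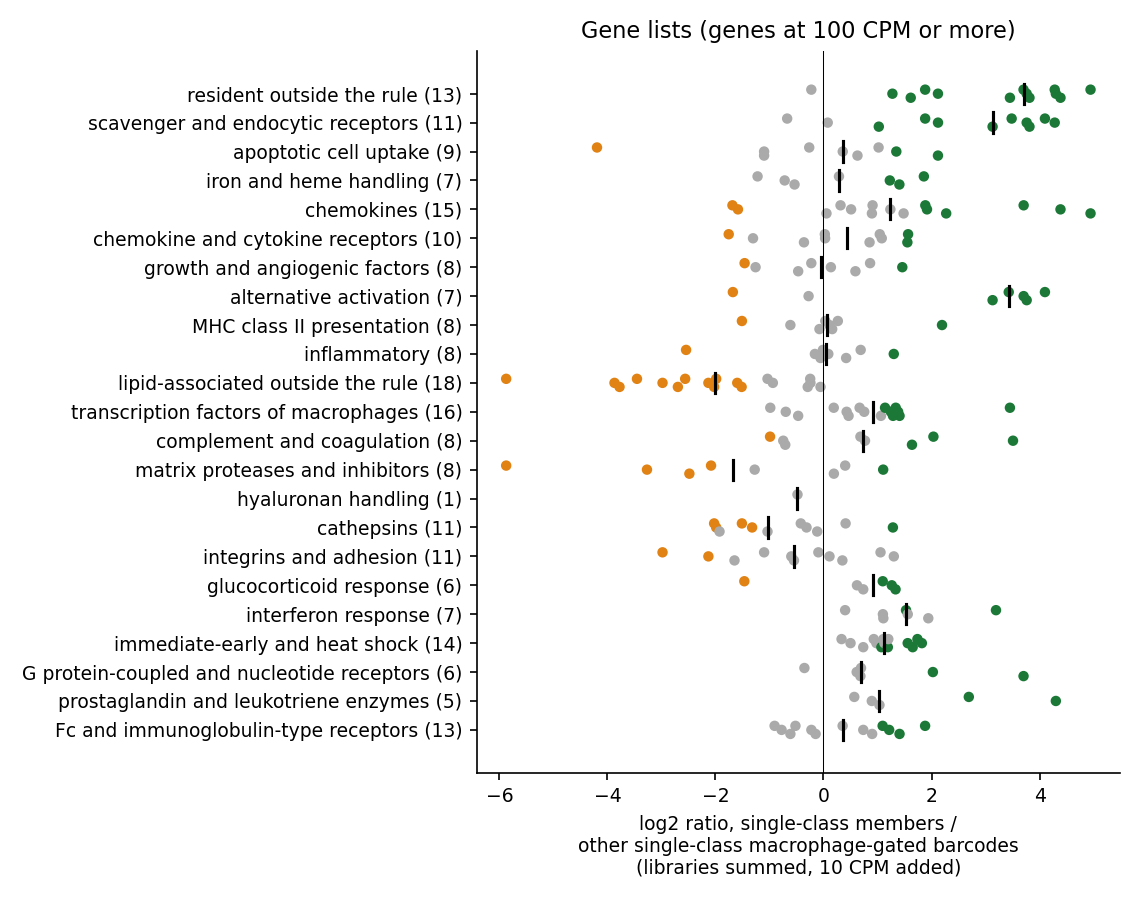
Points are tested genes of each list (number in brackets) by log2 ratio of resident macrophages to the other single-class macrophage-gated barcodes, libraries summed and 10 CPM added; green marks genes called higher, orange lower, grey neither, and black bars are list medians. The resident list lies farthest to the right, with 12 of 13 genes called, and the lipid-associated list to the left, with 12 of 18.

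With mixed barcodes kept on both sides, 9 of 10 tested scavenger genes, 7 of 16 chemokines and 5 of 7 alternative activation genes were called higher. Called lower were 8 of 17 lipid-associated genes and 4 of 11 genes of the cathepsin list.

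Against the lipid-associated barcodes alone, chosen by the same gate with the lipid and resident criteria reversed, the contrast was wider. Over all chosen barcodes 288 of 1961 genes were higher (14.7%) and 136 lower (6.94%), with a median of 0.18 over all genes. Scaling by trimmed mean of M-values (TMM) lowered all log2 ratios of this comparison by 0.26 and gave 186 higher and 193 lower, so the balance of higher over lower genes depends on the scaling. Retnla stood at 859 and 575 CPM in the resident macrophages and 0.331 and 0 CPM in lipid-associated single-class barcodes. Mgl2 stood at 308 and 269 CPM against 0.661 and 0 CPM. Both lectin and resistin-like genes were thus all but absent from the lipid-associated cells. Cd209d was at least 179-fold higher and Timd4 at least 51.4-fold higher at a floor of 3 counts over the group. Ighm, an immunoglobulin heavy chain gene of B cells, was at 170 and 236 CPM against 5.29 and 6.64 CPM, with the B cell genes Cd79a and Pax5 at 0. Bex1 had no UMI in the chosen cells and was at least 38.1-fold lower. Ctsb, Ctsd, Ctsk, Ctsl, Ctss and Ctsz, 6 of 11 tested genes of the cathepsin list, were lower. Ctsd reached 9168 and 10200 CPM in lipid-associated single-class barcodes against 1301 and 1055 CPM.

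The threshold of 3 resident genes cut through a gradient. It is shown here for macrophage-gated barcodes with at most 2 lipid genes, and mixed barcodes are kept at each step. Barcodes with 2, 3, and 4 or more of the resident genes numbered 43, 25 and 73 in library 1 and 50, 18 and 25 in library 2. Pf4 rose over these steps from 117 to 784 to 3663 CPM and from 248 to 1072 to 2452 CPM. Ccl8 stood at 218, 3509 and 4624 CPM and at 924, 6639 and 4936 CPM. Timd4 was at 0 with 2 or 3 genes, and at 40.6 and 60.4 CPM with 4 or more. The level of Acta2, smooth muscle actin, ran the other way, at 5271, 877 and 550 CPM and at 2277, 406 and 251 CPM. Dcn, the fibroblast marker, fell over the steps in library 2, at 3172, 2192 and 149 CPM, but not in library 1, at 1454, 3881 and 2361 CPM. Depth differed over the steps as well. With 2, 3, 4, 5 and 6 genes the median was 4324, 2727, 3812, 7280 and 6164 UMIs in library 1. In library 2 it was 4120, 6162, 7152, 8888 and 10050 UMIs. The part of depth and of mixed barcodes in these levels was not tested. These values bear on the choice of the cells and carry no test.

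Between the libraries, a number of resident genes were lower and MHC class II genes higher in library 2 among single-class barcodes, and over all chosen barcodes fewer resident genes were lower. Over all chosen barcodes 129 of 1996 genes were 2-fold or more higher in library 2 (6.46%) and 138 lower (6.91%). The extremes of the lower side came from the mixed barcodes. Saa3, an acute-phase protein, was at 1952 CPM in the mixed barcodes of library 1 and at 379 CPM in the single-class ones, where 1 cell held 95.9% of it. Prg4, Ecrg4 and Sox9, genes of synovial or cartilage-like cells, were at 1234, 1189 and 480 CPM in those mixed barcodes and at 4.46, 4.46 and 0 CPM in the single-class ones. Among single-class barcodes 123 of 1987 genes were higher in library 2 (6.19%) and 100 lower (5.03%). With 1 library on each side, a difference between libraries cannot be told apart from one between animals or preparations.

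Of 15 resident genes outside the rule that could be compared, 7 were lower in library 2 and none higher (Pf4, Cd209d, Cd209g, Fcna, Vsig4, Ednrb and Ltc4s), with a median log2 ratio of -0.49 against 0.02 for all genes. Over all 141 chosen barcodes, 3 of 14 were lower (Cd209d, Cd209g and Fcna) and 1 higher (Igf1), with a median of -0.12 against 0.05 for all genes. Among single-class barcodes Lyve1 was 3.98-fold lower (3.11 to 5.16), Fcna 3.55-fold and Fxyd2 8.86-fold. F13a1 was 1.95-fold lower and not called. Ratios of library 2 to library 1 were 0.767 for Mrc1, 0.927 for Maf, 0.94 for Stab1 and 0.909 for Ccl8. Resident genes thus did not differ between the libraries by 1 common factor. In the other single-class macrophage-gated barcodes Lyve1 and Fcna, at the low levels given above, were also lower in library 2. Fxyd2 and Pf4 were higher there in library 2.

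MHC class II genes, which present peptides to helper T cells, gave the opposite picture. H2-Aa was at 1207 CPM in library 1 and 2933 CPM in library 2, a ratio of 2.43 (2.19 to 2.70). H2-Ab1 and H2-Eb1 were higher by 2.42-fold (2.14 to 2.74) and 2.25-fold (2.01 to 2.54), and the invariant chain Cd74 by 1.93-fold. In the other single-class macrophages H2-Aa was at 1398 and 1996 CPM. The whole list had 3 of 8 genes higher and none lower, with a median of 0.87, and over all 141 chosen barcodes 5 of 8 higher, with a median of 1.36. Cd72 was also higher, by 2.90-fold (1.83 to 4.72), and it was higher in library 2 in the other single-class barcodes too. Against the rest of the gate with the libraries summed, H2-Aa, H2-Ab1 and H2-Eb1 had ratios of 1.20, 0.95 and 1.08, and none was called. In summed counts H2-Aa was lower than in the rest of the gate in library 1 and higher in library 2. Per cell the order in library 1 was the opposite: the median of H2-Aa, H2-Ab1 and H2-Eb1 together was 8.49 UMIs per 10000 in the resident macrophages and 2.59 in the other single-class barcodes, and in library 2 it was 17.7 and 6.55. The median of the rest of the gate was thus also higher in library 2.

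Chemokine and interferon genes also differed between the libraries. Whether these differences are particular to the resident macrophages was not tested. Ccl6 was 3.29-fold lower in library 2, Ccl9 2.51-fold and Cxcl10 4.61-fold. Ccl2 was 2.30-fold higher (1.97 to 2.69), and it was also higher in library 2 in the other single-class barcodes. Ccl3 was 2.77-fold higher at full depth but lower by 0.46 on the log2 scale after thinning to equal depth. Of 8 interferon genes 3 were lower and none higher: Ifit1 by 8.45-fold, Rsad2 by 4.04-fold and Isg15 by 2.19-fold. Ifit1 came from 19 of 53 and 4 of 38 cells. Tsc22d3, a glucocorticoid-induced gene, was 2.53-fold lower, and Id2, a transcriptional inhibitor, was 2.24-fold higher. Bank1, an adaptor known from B cells, was at 24.6 and 139 CPM in 8 of 53 and 18 of 38 cells. Jam3, at 0 and 178 CPM, rested on 1 cell with 96.6% of its UMIs. Plau, urokinase, was at 42.4 and 154 CPM.

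Within library 1 the resident macrophages ran from Lyve1-rich cells with little MHC class II to cells with much MHC class II and no Lyve1. The summed H2-Aa, H2-Ab1 and H2-Eb1 level ran from 0 to 222 UMIs per 10000 with a median of 8.49 in library 1, and from 0 to 312 with a median of 17.7 in library 2. Across cells its Spearman correlation with Lyve1 was -0.60 in library 1 (n = 53) and -0.12 in library 2 (n = 38). The cells of a library share its free RNA, each pair of values is divided by the same depth, and Lyve1 helped to choose the cells, so these correlations are descriptions. Depth itself correlated with the MHC class II level at -0.12 and -0.08.

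Splitting by Lyve1 detection shows the levels behind this. In library 1 the 42 cells with a Lyve1 UMI had H2-Aa at 658 CPM (578 to 746), and the 11 without had 3779 CPM (3362 to 4233). In library 2 the 18 cells with Lyve1 had 2097 CPM (1881 to 2332) and the 20 without had 3747 CPM (3459 to 4052). The cells without Lyve1 were thus higher in H2-Aa in each library, but the intervals cover the counting of pooled molecules and not the spread between cells. Stromal markers moved with the split in library 2, where Dcn was at 135 CPM with and 626 CPM without Lyve1 and Acta2 at 98.1 and 430 CPM. In library 1 Dcn was at 154 and 203 CPM and Acta2 at 86.7 and 50.7 CPM. Spp1 was at 104 and 794 CPM in library 2 and at 1755 and 494 CPM in library 1. Their part in the split was not tested. Median depths with and without Lyve1 were 7363 and 6207 UMIs in library 1 and 8353 and 7038 UMIs in library 2. Pf4 stood at 5137 CPM with and 1306 CPM without Lyve1 in library 1, and at 2747 and 1283 CPM in library 2. Ccl8 did not follow Lyve1, with 6394 and 7418 CPM in library 1 and 6040 and 5918 CPM in library 2.

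**Figure D5:**
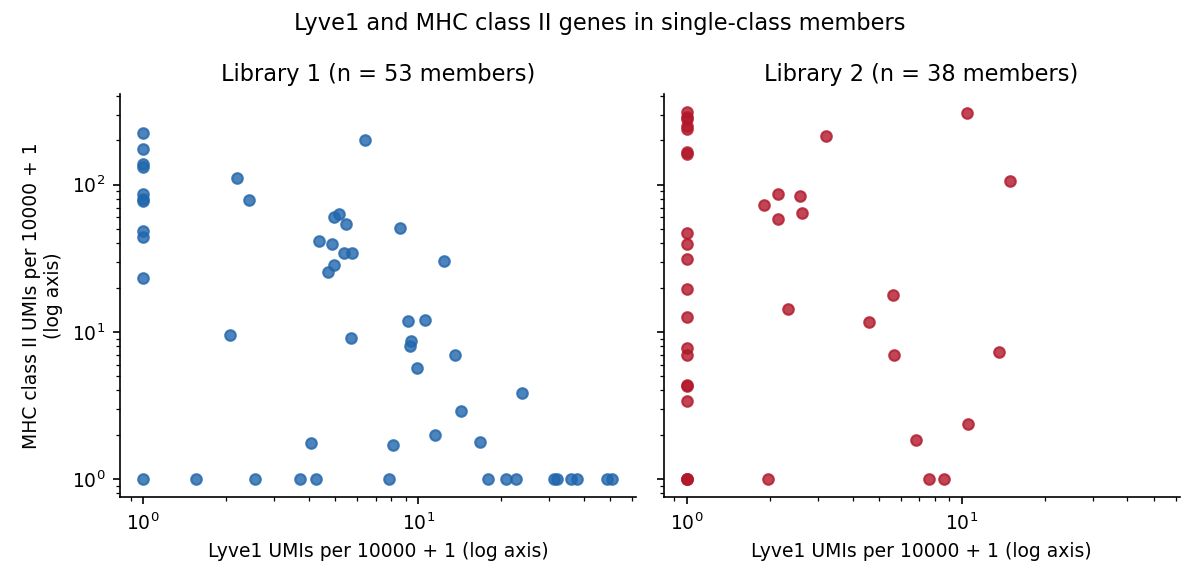
Each point is 1 resident macrophage, with Lyve1 UMIs per 10000 plus 1 (horizontal) and the sum of H2-Aa, H2-Ab1 and H2-Eb1 per 10000 plus 1 (vertical) on log axes, 1 panel a library. In library 1 the cells richest in Lyve1 lie at the bottom of the plot (Spearman -0.60, n = 53), and in library 2 cells without Lyve1 span the whole height (-0.12, n = 38).

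Correlations of other resident genes with Lyve1 differed from gene to gene and are descriptions. Spearman correlations with Lyve1 were 0.63 and 0.66 for F13a1, 0.57 and 0.52 for Folr2 and 0.55 and 0.49 for Ccl24. The correlations of Cd163 were lower, at 0.12 and 0.28 with Lyve1 and 0.17 and 0.08 with F13a1. Lyve1, F13a1, Folr2 and Cd163 are rule genes, and each cell had to hold 3 or more of the 6. The rule thus shapes the correlations among them. Those of Ccl8 with Lyve1 were -0.21 and -0.09, and with the MHC class II level 0.25 and 0.37. F13a1 and Folr2 correlated with the MHC class II level at -0.51 and -0.54 in library 1 and at 0.04 and -0.12 in library 2. Timd4 was detected in 9 and 6 cells, of which 9 and 5 also had Lyve1. Retnla stood at 1159 CPM with and 5.97 CPM without Lyve1 in library 2, where 1 cell held 56.3% of its UMIs, and at 1013 and 139 CPM in library 1. Igf1 ran the other way, at 227 CPM with and 638 CPM without Lyve1 in library 2, and at 219 and 406 CPM in library 1, and in library 2 Dcn and Acta2 were higher without Lyve1 as well. Ccl8 itself was very uneven from cell to cell. It ran from 0 to 444 UMIs per 10000 with a median of 11.1 in library 1, and from 0 to 299 with a median of 11.1 in library 2, and 4 of 53 and 3 of 38 cells held 50% of its UMIs.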

How the data were processed

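Aortic cells of 2 samples were profiled by droplet RNA sequencing. The authors deposited 1 unfiltered matrix of raw UMI counts per gene and barcode (32285 genes, 2828620 barcodes), which per the file headers came from Cell Ranger 6.0.1. Tools listed in the submitters' processing notes are Seurat, bcl2fastq and Cell Ranger, with build mm10; the sources used here do not give the annotation. Counts were summed per gene, library and set of barcodes and scaled to CPM. Levels count molecules at the 3' end, so each gene is compared only with itself between sets. Poisson, conditional binomial and Clopper-Pearson intervals are at 95%. No doublet caller was run; mixed barcodes were marked by the markers of 10 other classes. Named genes were, by rule, those with the highest and lowest ratios among called genes (15 and 10 against the gate, 10 and 10 against lipid-associated barcodes, 8 and 8 between libraries), all rule and resident genes, and the called or 4 highest genes of each list; genes outside it were picked on their values. Members and lists were chosen with earlier results of these data known. Gene positions are from GENCODE vM21 (32158 of 32285 identifiers matched). Some genes of the lists are not reported here. Thinning used seed 1. Alternatives covered thinning, depth, rule thresholds, level minimum, per-barcode means, TMM scaling (edgeR 4.0.16 in R 4.3.3), the deepest cells and mixed barcodes. Python 3.11.15, numpy 2.4.6, scipy 1.17.1 and pandas 2.3.3 were used.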

Additional observations from a re-analysis of the deposited data

How the results depend on the processing

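Of 84 summary values under an alternative, 58 stayed within 1.5-fold (for shares, within the interval), and 26 moved. Of 285 values of single genes 243 stayed, 39 moved and 3 reversed. Genes higher in library 2 (129) numbered 491 after thinning to 2000 UMIs, 462 after thinning without mixed barcodes, 226 with 4 or more resident genes, 253 at a minimum of 50 CPM and 70 at 200 CPM. Genes lower in library 2 (138) numbered 310, 298, 301 at 50 CPM and 57 at 200 CPM. Higher than lipid-associated barcodes (288): 183 with per-barcode means, 459 at 50 CPM, 154 at 200 CPM and 186 with TMM. Lower than these (136): 89, 206 and 80. Higher than the rest of the gate (158): 255 at 50 CPM and 93 at 200 CPM. Lower (90): 58 with per-barcode means, 152 and 47. The share of the gate fell from 8.77% to 6.53% in library 1 with 4 or more resident genes. In library 2 it went from 3.27% to 1.90% with that criterion, 8.04% at 4000 UMIs, 8.21% without mixed barcodes and 5.10% when these were also thinned. Reversed values between libraries were Ccl3 at -0.46 (log2, thinned without mixed barcodes) and Spp1 at 1.72 (thinned) and 0.81 (thinned without mixed barcodes). The cause was not tested. Thinning leaves fewer UMIs in each set. Leaving out the deepest member of each library, and combining the removal of mixed barcodes with thinning or per-barcode means, were alternatives chosen after seeing the data. No paired analysis was possible because no library is tied to a sample and each sample has 1 library.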
